A study of Mus musculus with 10 samples.

Results

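The kidneys of male and female mice not given 16OHE were compared by RNA sequencing in 6 of the 10 libraries of the series, the ones whose titles do not carry the treatment 16OHE. They were 1 male (XY) and 1 female (XX) library of each of 3 genotypes, named Rosa, R899X and Delx4. R899X and Delx4 are given as mutation types of the bone morphogenetic protein receptor gene Bmpr2, and Rosa carries no mutation type in the labels. Each library was made from polyA RNA of flash-frozen kidneys pooled from 3 animals. The labels give no strain, age, dose of any agent or driver of the mutant alleles, and all 6 libraries are labelled control. Only genes on chromosomes 1 to 19 are described, so that gene dosage of X and Y stays out of the comparison. Of 43008 autosomal gene identifiers in the counts, 14615 had enough reads to be tested. Each genotype and sex had 1 library, so the p-values rest on how far the 3 male-minus-female differences depart from each other. The test also shares variance estimates across genes. A sex difference that varies with genotype is part of that spread. The p-values measure spread between pools, not between animals. The submitters also state that 5 numbered samples had copper-supplemented donors, without saying how samples are numbered. Read as library numbers this takes in the R899X female, and read as places in the sample list it takes in the Delx4 male and the Rosa female.

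The mouse kidney has long been known as a sexually dimorphic organ. Most of that difference lies in the proximal tubule, whose cells hold the androgen receptor and respond to testosterone with growth and with induction of transporters, cytochrome P450s and secreted proteins such as Kap, the kidney androgen-regulated protein. Estrogen, prolactin and the sex-specific pattern of growth hormone release act on tubule transcripts as well. The androgen receptor gene itself is X-linked and is therefore not among the genes described.

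Gene reads numbered 19.2 to 30.7 M per library (M for 1e6), and mitochondrially encoded genes took 8.54 to 12.7% of them. Levels are in CPM, counts per 1e6 reads of the tested genes, scaled by the trimmed mean of M values (TMM). Xist, transcribed from the inactive X, was at 405 to 613 CPM in the female libraries and at 0.908 to 2.33 in the male ones. The Y-linked gene Ddx3y was at no more than 0.186 CPM in females and at 54.4 to 56.9 in males. The sex labels thus matched these genes in all 6 libraries. Males and females were apart on the leading principal component, which took up 57.7% of the variance. Pearson correlations of log2 levels across genes were 0.977 to 0.984 for the 6 pairs of libraries of 1 sex and 0.939 to 0.959 for the 9 pairs of different sex. The R899X male stood apart in several measures. Its most-read gene was Gm42418 and the expected strand held 14.0 times as many gene reads as the other strand, while the other 5 libraries were led by mt-Co1 and held 16.1 to 18.4 times as many. Reads outside genes made up 10.4% of it and mitochondrial genes 8.54% of its gene reads, against 6.69 to 8.05% and 10.0 to 12.7% in the others. Bmpr2 stood at 112, 217 and 205 CPM in the Rosa, R899X and Delx4 females and at 103, 582 and 233 CPM in the males of the same genotypes. Its sex difference of 0.50 ± 0.26 on the log2 scale did not pass the test (adjusted p = 0.254).

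Levels below are the same TMM-scaled CPM, and the values of 3 libraries always follow the order Rosa, R899X, Delx4. Differences are log2 fold changes, male minus female, ± SE over 3 male and 3 female libraries, from edgeR's quasi-likelihood test with genotype as a block and Benjamini-Hochberg adjustment. A gene is called at an adjusted p under 0.05.

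Males and females differed in 2516 autosomal genes, 17.2% of those tested, with 1269 higher in males (8.68%) and 1247 lower (8.53%). Their differences were mostly modest: the median size was 0.66 on the log2 scale among called genes and 0.22 over all tested genes. More than 2-fold differences were called for 725 genes (4.96%), 378 of them higher in males and 347 lower. Beyond 8-fold there were 82 higher and 49 lower, and beyond 32-fold 24 and 17. Of the 2516, 2515 had the same sign in all 3 genotype pairs (the exception was the immunoglobulin segment Igkv10-96), and in 2388 the 3 male levels did not overlap the 3 female levels, against 36.1% of all tested genes. Both counts come from the libraries that made the call, and the 36.1% includes the called genes, so they are no test. The count of 2516 was 1411 without the Delx4 female, 1436 without the Delx4 male and 1641 without the Rosa female. Leaving out 1 library also takes its partner out of the estimate of sex.

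**Figure D1:**
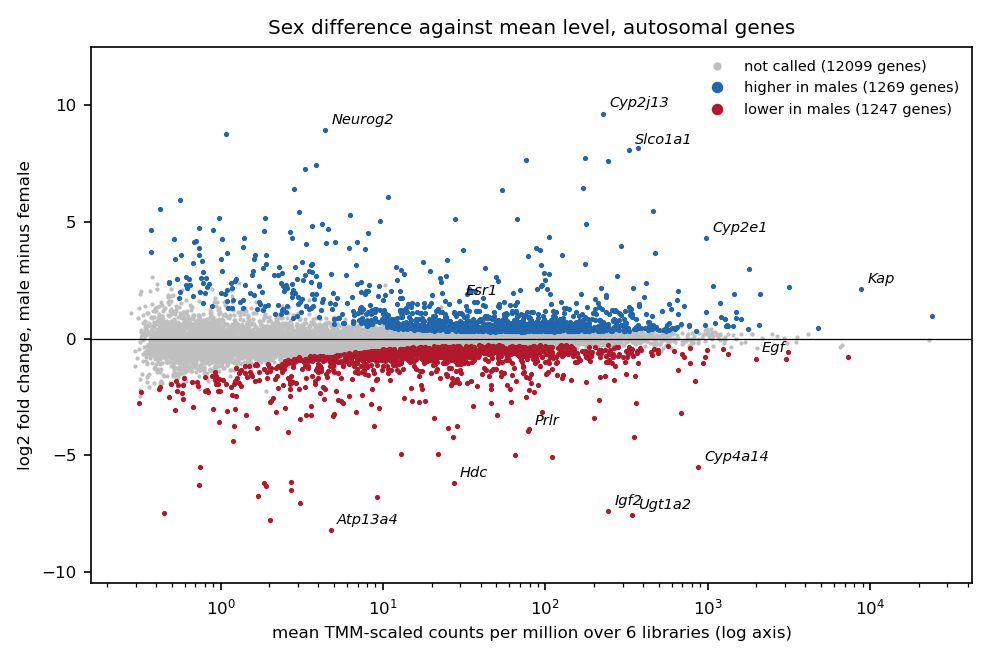
Log2 fold change (male minus female) of each tested autosomal gene against its mean level over the 6 libraries, in TMM-scaled CPM on a log axis. Blue points are the 1269 genes called higher in males, red points the 1247 called lower and grey points the genes not called. Large differences run in both directions, from Cyp2j13 at 9.65 to Atp13a4 at -8.21.

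The 15 named genes with the largest male excess spanned differences of 5.42 to 9.65 and were of mixed function. Cyp2j13, a P450 of the arachidonic acid epoxygenase family, was at 0.547, 0.626 and 0.528 CPM in females and at 472, 317 and 574 CPM in males. It was near the detection limit in every female library and plainly present in every male one, with a difference of 9.65 ± 0.20 (adjusted p = 2.98e-07). Slco1a1, which encodes an uptake transporter of organic anions and steroid conjugates, was at 3.43, 2.21 and 1.86 CPM in females and at 714, 549 and 698 CPM in males. The groups lay far apart, at 8.07 ± 0.19 (adjusted p = 4.87e-07). Slc7a13, an amino acid transporter of the late proximal tubule, was at 4.13, 2.13 and 1.83 CPM in females and at 828, 541 and 845 CPM in males. The R899X male had the lowest of the 3 male levels, still far above every female (difference 8.15 ± 0.24, adjusted p = 1.71e-06).

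Pzp, an alpha-macroglobulin protease inhibitor better known from plasma, was at 0.994, 0.877 and 3.11 CPM in females and at 349, 277 and 419.6 CPM in males. The Delx4 female was the highest of the females without approaching any male (difference 7.73 ± 0.26, adjusted p = 3.39e-06). Ugt2b37, an enzyme that adds glucuronic acid to steroids and drugs, was at 0.746, 0.584 and 0.838 CPM in females and at 194, 105 and 154 CPM in males. Its difference of 7.66 ± 0.14 had the smallest p of all autosomal genes (adjusted p = 2.65e-07). Its relative Ugt2b38 was at 17.2, 30.2 and 14.9 CPM in females and at 994, 586 and 1121 CPM in males, again without overlap (5.45 ± 0.38). Ugt2b genes are near copies of each other and reads that fit several places were not counted, so the split of reads between them is uncertain.

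Acsm3, a medium-chain acyl-CoA synthetase, was at 2.34, 3.26 and 1.58 CPM in females and at 576, 262 and 616 CPM in males, with the R899X male below the other two males (difference 7.60 ± 0.40). Inmt, which methylates indole amines, was at 4.97, 2.92 and 3.48 CPM in females and at 428, 214 and 369 CPM in males, a difference of 6.46 ± 0.14. For Cyp7b1, which hydroxylates oxysterols and sex steroid precursors, the levels were 0.994, 1.42 and 1.24 CPM in females and 159, 67.0 and 97.6 CPM in males, a difference of 6.36 ± 0.25. All 3 genes repeat 1 picture, with females close together at a low level and the R899X male the lowest male. The glutathione transferase gene Gstp3 was at 0.0497, 0.167 and 0.621 CPM in females and at 23.1, 18.8 and 21.6 CPM in males. Hsd17b13, a short-chain dehydrogenase of lipid droplets, was at 0.149, 0.250 and 0.0311 and 5.86, 4.97 and 6.93 CPM. Neither gene had overlapping groups, and the differences were 6.08 ± 0.39 and 5.42 ± 0.49.

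Regulators and neuronal genes that the kidney hardly transcribed in females were among the largest male excesses too. Neurog2, a proneural transcription factor, had 0, 0 and 1 reads in the females and 231, 211 and 212 in the males. The ratio of the summed, depth-scaled reads was 660.0 (exact 95% interval 118 to 26100, counting error only). Mpped1, a metallophosphoesterase domain gene, had 2, 1 and 0 reads in females and 172, 167 and 232 in males, a ratio of 192 (65.4 to 934). Cntnap5a, of the contactin-associated family of nerve cells, had 0, 0 and 3 and 189, 92 and 194 reads, a ratio of 160.0 (54.4 to 778). Each of the 3 genes had at most 3 reads over all female libraries. Lhx2, a LIM-homeobox transcription factor, was at 0, 0.167 and 0.0311 CPM in females and at 2.98, 5.95 and 7.93 CPM in males, a difference of 6.39 ± 0.53 (adjusted p = 0.000222).

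The 15 named genes with the largest female excess were of mixed function as well, and the 2 largest, Atp13a4 and Cacna1i, are given below by their reads. Ugt1a2, another glucuronosyltransferase, was at 603, 667 and 763 CPM in females and at 5.22, 3.06 and 2.67 CPM in males. It was present in every female library and close to lost in males, with a difference of -7.56 ± 0.26 (adjusted p = 3.39e-06). Igf2, the insulin-like growth factor of fetal growth, was at 459.8, 308 and 692 CPM in females and at 4.17, 2.02 and 2.30 CPM in males, with wide spread among females and no overlap (-7.40 ± 0.27, adjusted p = 4.34e-06). H19, the neighbour imprinted in the opposite sense, had at most 4 reads in any library and was not tested.

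Cyp4a14, a fatty acid omega-hydroxylase, was at 2284, 1606 and 1269 CPM in females and at 33.4, 49.3 and 29.1 CPM in males, a difference of -5.52 ± 0.22. Fabp1, the liver-type fatty acid binding protein, was at 40.2, 14.4 and 20.3 CPM in females and at 1.10, 0.303 and 1.04 CPM in males (-4.94 ± 0.23). In both of these genes of fatty acid use the Rosa female had the highest level and no male reached any female. Hdc, which makes histamine from histidine, was at 7.56, 34.3 and 119.9 CPM in females and at 0.504, 0.538 and 0.876 CPM in males. The females differed from each other far more than the males did, with the Delx4 female highest, and still did not overlap the males (-6.22 ± 0.38, adjusted p = 5.37e-05).

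Slc7a12, an amino acid exchanger, was at 212, 229.7 and 198 CPM in females and at 11.4, 7.13 and 2.42 CPM in males (-5.07 ± 0.34). Abcc3, a pump for conjugated bile acids and drugs, was at 117, 135 and 128 CPM in females and at 4.67, 4.67 and 2.75 CPM in males (-4.98 ± 0.17). Bhmt, which remethylates homocysteine with betaine, was at 65.2, 43.4 and 45.1 CPM in females and at 3.57, 3.03 and 1.71 CPM in males (-4.21 ± 0.16). The female levels of Slc7a12 and Abcc3 lay close together, and those of the males were further apart in proportion. Slc17a2, of the sodium-phosphate cotransporter family, was at 22.0, 14.0 and 18.6 CPM in females and at 0.412, 0.0672 and 0.0417 CPM in males (-6.79 ± 0.37). Tmprss6, a membrane protease known for iron sensing in liver, was at 4.28, 3.17 and 8.76 and 0.0916, 0.0672 and 0.0417 CPM (-6.16 ± 0.43).

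The largest female excess, with almost no reads in males, was that of Atp13a4. This gene, a P-type ATPase of the polyamine transporter family, had 258, 172 and 276 reads in females and 1, 1 and 0 in males, a female-to-male ratio of 350.0 (96.4 to 2890). Cacna1i, a T-type calcium channel subunit, had 95, 82 and 125 and 0, 1 and 0 reads, a ratio of 299 (53.3 to 11900). Serpina6, the corticosteroid-binding globulin gene, had 185, 143 and 105 and 0, 1 and 2 reads, a ratio of 143 (48.6 to 696). The myosin gene Myh1 was at 6.17, 3.59 and 6.33 CPM in females and at 0.0458, 0 and 0.125 CPM in males (-6.52 ± 0.49). Of the other muscle markers, Acta1, Ckm, Myh4 and Tnnt3 had at most 9 reads in any library. All 30 genes with the largest differences, 15 in each direction, kept their direction and their call under the 16 other settings tried.

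Read as nearly on or off, 4 genes were under 1 CPM in every female and over 10 CPM in every male library: Cyp2j13, Ugt2b37, Gstp3 and the unnamed gene Gm12678 (chosen after the values were seen). The reverse held for 1 gene, Slc17a2. As a share of all gene reads, the genes called higher in males held 12.6 to 13.4% in female and 22.1 to 23.0% in male libraries. They include Gm42418, the most-read gene of the R899X male, at a mean of 16845 CPM in females and 31363 CPM in males (0.94 ± 0.19). Its spread within each sex was wide, with an SD of 7295 CPM among females and 12110 CPM among males. Those more than 2-fold higher, which leave Gm42418 out, held 1.9 to 2.2% in female and 6.4 to 7.7% in male libraries. The genes called lower held 10.6 to 11.6% in females and 5.68 to 6.14% in males. These shares describe the libraries that chose the genes and are no test.

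**Figure D2:**
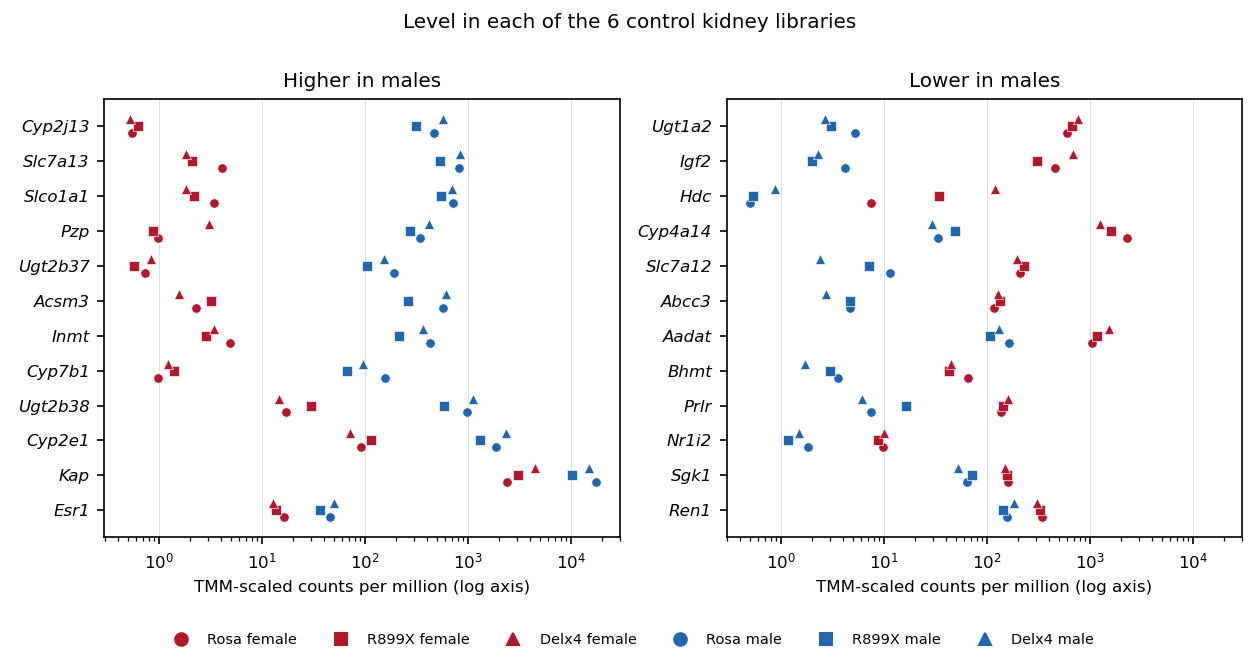
Level of 24 genes in each of the 6 libraries, in TMM-scaled CPM on a log axis, with females in red, males in blue and the genotype given by the marker. The left panel shows 12 genes higher in males and the right panel 12 lower. In none of the 24 do the sexes overlap, but they were picked from the called genes, of which 2388 of 2516 do not overlap. Among all tested genes the share without overlap is 36.1%. Hdc shows the wide range among females, from 7.56 to 119.9.

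Promoters of 4 of these genes are shown because hormone receptors act through short DNA elements, and to let the letters be read beside the values above. Slco1a1 and Ugt2b37 represent the male excess without a match to any element searched, Pzp the male excess and Fabp1 the female excess with 1 match. Each run is the 250 bases upstream of the RefSeq start (GRCm38.p6), 5′ to 3′ on the gene's strand, and capitals mark AGAACA or its reverse complement, the core hexamer bound by androgen and glucocorticoid receptors.
Slco1a1, chr6:141946963-141947212, minus strand: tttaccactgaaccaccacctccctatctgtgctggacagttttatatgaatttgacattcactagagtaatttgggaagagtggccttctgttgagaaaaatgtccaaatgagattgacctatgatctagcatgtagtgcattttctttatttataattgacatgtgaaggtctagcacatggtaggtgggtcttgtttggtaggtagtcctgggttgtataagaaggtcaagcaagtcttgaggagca
Ugt2b37, chr5:87254789-87255038, minus strand: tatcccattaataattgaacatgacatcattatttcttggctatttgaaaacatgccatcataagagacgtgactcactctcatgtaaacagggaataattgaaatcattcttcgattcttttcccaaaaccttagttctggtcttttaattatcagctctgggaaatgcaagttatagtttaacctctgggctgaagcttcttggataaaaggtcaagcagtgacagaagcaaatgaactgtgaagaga
Pzp, chr6:128526721-128526970, minus strand: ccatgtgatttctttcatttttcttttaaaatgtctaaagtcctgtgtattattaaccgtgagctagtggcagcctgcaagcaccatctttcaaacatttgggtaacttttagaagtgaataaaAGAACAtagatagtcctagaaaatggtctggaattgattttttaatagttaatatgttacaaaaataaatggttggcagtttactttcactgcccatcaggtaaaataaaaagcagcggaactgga
Fabp1, chr6:71199629-71199878, plus strand: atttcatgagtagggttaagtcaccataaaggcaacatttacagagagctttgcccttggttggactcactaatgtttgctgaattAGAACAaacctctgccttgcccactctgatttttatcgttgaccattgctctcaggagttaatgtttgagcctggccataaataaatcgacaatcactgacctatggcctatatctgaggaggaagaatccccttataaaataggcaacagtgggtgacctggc

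The search took AGAACA, the full androgen response element (AGAACA and its reverse complement on either side of a spacer of 3 bases, so that it contains AGAACA), the STAT element TTCNNNGAA through which growth hormone and prolactin act, the palindromic estrogen response element and the HNF4A core CAAAGTCCA, each on both strands. AGAACA lay in 11.5% of 330 start windows of genes more than 2-fold higher in males, in 14.4% of 326 of genes more than 2-fold lower, in 10.9% of 13732 of all tested genes and in 16.1% of all 31396 autosomal windows. For TTCNNNGAA the shares were 5.76%, 8.59%, 6.09% and 7.06%. CAAAGTCCA lay in 0.909% (3 windows), 0.307% (1 window), 0.335% and 0.392% of them. The full androgen response element was in 0, 1, 2 and 3 windows and the estrogen response element in 0, 0, 0 and 21. RefSeq starts were found for 12 of the 15 genes with the largest male excess and 9 of the 15 with the largest female excess. Among these, AGAACA was in the windows of Pzp, Fabp1, Hdc and 1 of 4 starts of Igf2, and TTCNNNGAA in those of Slc17a2 and Cacna1i. A match is a description of letters, and elements outside these windows were not searched.

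Each count of list members called higher or lower from here on stands against 8.68% higher and 8.53% lower among all tested autosomal genes. The lists of known sex-biased kidney genes, assembled with earlier results of these libraries known, serve to describe the direction and size of differences and not as independent evidence. All 19 male-biased genes were higher in males, with a median of 4.89, against a median of -0.0080 over all autosomal genes tested. Kap was at 2413, 3089.6 and 4502 CPM in females and at 17778, 10336 and 15081 CPM in males, without overlap (2.12 ± 0.23, adjusted p = 0.000911; adjusted p = 0.0809 with DESeq2). Odc1, the polyamine synthesis enzyme and a classical androgen-induced kidney transcript, was at 234, 245 and 289 CPM in females and at 1082, 852 and 1268 CPM in males (2.05 ± 0.11). Cyp2e1, a P450 for ethanol and small solvents, was at 92.0, 116 and 72.7 CPM in females and at 1888, 1321 and 2350.1 CPM in males (4.30 ± 0.28). Of 14 female-biased genes 13 were lower in males, with a list median of -4.60, and 1 was higher. That gene was Cyp2a4, a steroid hydroxylase known from female liver, at 267, 310.0 and 334 CPM in females and 813, 926 and 824 CPM in males (1.50 ± 0.10); it shares most of its sequence with its neighbour Cyp2a5.

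Among 17 tested genes of the receptors and signalling of sex steroids, growth hormone and prolactin, 4 were higher in males, 4 were lower and 9 were not called. Esr1, estrogen receptor alpha, was at 16.5, 13.9 and 13.0 CPM in females and at 45.8, 37.2 and 50.2 CPM in males, higher in every male than in any female (1.62 ± 0.12, adjusted p = 0.000159). Esr2, estrogen receptor beta, was close to absent in females, with 0, 3 and 5 reads, and had 63, 129 and 91 reads in males (5.16 ± 0.50, adjusted p = 0.0005). Prlr, the prolactin receptor, went the other way, at 136, 145 and 161 CPM in females and 7.46, 16.5 and 6.13 CPM in males (-3.96 ± 0.28, adjusted p = 0.000104). The growth hormone receptor gene Ghr did not separate the sexes, at 858, 854 and 936 CPM in females and 1050.4, 846 and 1138 CPM in males (0.19 ± 0.10, adjusted p = 0.283).

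Downstream of cytokine-type receptors, Socs2, a feedback inhibitor of growth hormone signalling, was at 37.6, 50.4 and 68.7 CPM in females and at 13.8, 12.6 and 14.4 CPM in males (-1.91 ± 0.15). Cish, a second such inhibitor and STAT5 target, was lower in males by a smaller amount (-0.65 ± 0.11). Bcl6, a repressor that marks the male pattern of STAT5 targets in liver, was at 14.1, 17.3 and 14.2 CPM in females and at 72.8, 66.2 and 124 CPM in males (2.48 ± 0.20). So the 2 inhibitor genes and the repressor gene moved in opposite directions, and none of the 3 overlapped between the sexes.

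Genes that answer to androgens in other organs were called in both directions. Of 13 tested, 2 were higher in males and 5 were lower. The higher ones were Odc1, given above as androgen-induced in kidney too, and the glucocorticoid and androgen target Fkbp5. Fkbp5 overlapped between the sexes, at 115, 61.8 and 66.0 CPM in females and 132, 113 and 204 CPM in males (0.90 ± 0.23, adjusted p = 0.0336), and lost its call without the Delx4 female (adjusted p = 0.0785) or the Delx4 male (0.0724), as it did with DESeq2 (0.119). Lower were Sgk1 (-1.32 ± 0.10), Klk1 (-0.79 ± 0.15), Zbtb16 (-1.72 ± 0.21) and Abcc4 (-1.51 ± 0.18). The fifth was Acsl3, an acyl-CoA synthetase gene named here because it completes the count (-0.49 ± 0.14). Of 11 tested estrogen-responsive genes, the cyclin gene Ccnd1 was higher in males (1.18 ± 0.13), Inhbb (-0.997 ± 0.182) and Greb1 (-0.48 ± 0.10) were lower and 8 were not called. Greb1, a standard estrogen target of breast cells, overlapped between the sexes and lost its call without either Delx4 library.

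Enzymes that make and inactivate steroids had 9 of 18 tested members higher in males and 4 lower, beside 8.68% and 8.53% of all genes, with a median of 1.03. Akr1c14, a hydroxysteroid dehydrogenase, was at 33.0, 38.7 and 31.9 CPM in females and at 579, 434 and 637 CPM in males (3.98 ± 0.17). Akr1c21, a relative of it, was at 40.5, 54.2 and 17.0 CPM in females and at 304, 312 and 321 CPM in males (3.20 ± 0.30). Hsd17b11 (1.76 ± 0.14) and Hsd17b2 (1.90 ± 0.16), which oxidise sex steroids, were higher in males as well. Lower in males were Hsd17b14 (-2.72 ± 0.18) and Hsd11b2, which protects the mineralocorticoid receptor from glucocorticoids (-0.41 ± 0.09). The call of Hsd11b2 was lost without either Delx4 library (adjusted p = 0.0943 and 0.0948). Leaving out either Delx4 library left 2 of the 4 lower calls. Akr1c genes are close copies, so their separate values are uncertain.

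Transport of organic ions split evenly. Of 21 Slc22 genes, the main family of renal organic ion transporters, 7 were higher in males and 7 lower, beside 8.68% and 8.53% of all genes. Slc22a6 (OAT1), the basolateral uptake transporter for organic anions and many drugs, was at 505, 705 and 648 CPM in females and at 1704, 1560.4 and 2040.2 CPM in males (1.52 ± 0.14, adjusted p = 0.000357). Slc22a28 (5.14 ± 0.19) and Slc22a30 (5.12 ± 0.22), rodent genes clustered on chromosome 19, were far higher in males. Their neighbour Slc22a29 was far lower, at 42.4, 55.4 and 61.8 CPM in females and 3.75, 4.24 and 3.88 CPM in males (-3.74 ± 0.12). Slc22a13 (-1.71 ± 0.09) and Slc22a19 (-1.67 ± 0.17), both anion carriers, were lower too. Slc22a8 (OAT3), the other main drug-uptake gene beside OAT1, was not called (-0.33 ± 0.12, adjusted p = 0.107).

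Among 17 Slco and ABC genes 5 were higher in males and 6 lower. Higher beside Slco1a1 were Slco4c1 (2.88 ± 0.11), a basolateral carrier of digoxin and thyroid hormone, and Slco3a1 (1.93 ± 0.13). Lower beside Abcc3 were Abcb1b (-2.03 ± 0.16), a P-glycoprotein gene, Slco2a1 (-1.02 ± 0.09), the prostaglandin transporter, and Abcc4 (-1.51 ± 0.18), an apical efflux pump.

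Amino acid and sugar carriers leaned to the female side. Of 22 amino acid transporters 3 were higher in males and 10 lower, with a median of -0.27. Slc6a18, an apical carrier of neutral amino acids in the late proximal tubule, was at 1442, 1123 and 1253 CPM in females and at 649, 607 and 564 CPM in males (-1.06 ± 0.10). Slc7a8 (-0.61 ± 0.09) and Slc16a10 (-0.56 ± 0.08), basolateral exits for neutral and aromatic amino acids, were lower by less. Slc1a4, a carrier of alanine, serine and cysteine, was higher in males (0.86 ± 0.08). Without the Rosa female or the Rosa male 5 amino acid transporters were called lower.

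Of 20 genes for transport of sugars, dicarboxylates and sulfate 2 were higher in males and 11 lower, with a median of -0.41. Slc5a1 (SGLT1), the high-affinity glucose carrier of the late proximal tubule, was at 146, 135 and 117 CPM in females and at 69.1, 61.7 and 67.2 CPM in males (-1.004 ± 0.097). Slc5a9 (-1.29 ± 0.11), a mannose and glucose carrier, Slc5a12 (-0.76 ± 0.12), a lactate carrier, and Slc2a4 (GLUT4, -0.69 ± 0.11), the insulin-regulated glucose carrier, were lower as well. Slc5a8, a carrier of short-chain fatty acids and lactate, was at 125, 129 and 107 CPM in females and at 337, 245 and 348 CPM in males (1.35 ± 0.15), opposite in direction to Slc5a12. Without the Rosa female or the Rosa male 7 of these genes were called lower and 1 higher, and without a Delx4 library 8 and 1.

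In phosphate, calcium and vitamin D handling 3 of 22 genes were higher in males and 6 lower. Slc34a1 (NaPi-IIa), the main apical phosphate carrier, was at 3631, 4014 and 4363 CPM in females and at 5481, 4833 and 6368 CPM in males. Its difference was small (0.47 ± 0.12, adjusted p = 0.0287) and was not called without either Rosa or either Delx4 library (adjusted p from 0.163 to 0.186). Slc34a3 (NaPi-IIc), its partner, was lower in males (-0.56 ± 0.11) and lost its call without either Delx4 library. Kl, which encodes the FGF23 co-receptor Klotho, was higher (0.62 ± 0.11), and was not called without the Rosa female (adjusted p = 0.0594) or the Rosa male (0.0518). The distal calcium channel gene Trpv5 (-0.81 ± 0.12) and the calcium-binding protein gene Calb1 (-0.95 ± 0.15) were lower in males. Without either Delx4 library 3 of the 22 were called lower.

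Salt and water transport and the renin-angiotensin system had no gene called higher in males by edgeR and 15 of 28 called lower, with a median of -0.42; 17 of the 28 had an unadjusted p under 0.05. DESeq2 and limma-voom each called 2 higher and 15 lower, and 3 were called higher without either R899X library. The number called lower was 14 without the genotype block and 10 to 15 with single libraries left out. Ren1, the renin gene, was at 341, 326 and 308 CPM in females and at 158, 143 and 184 CPM in males (-1.01 ± 0.11, adjusted p = 0.000872). Mme, which encodes neprilysin, a peptidase that cleaves angiotensins and natriuretic peptides, was at 369, 353 and 329 CPM in females and at 148, 107 and 98.4 CPM in males (-1.59 ± 0.11). Sgk1, the aldosterone-induced kinase that raises sodium uptake, was at 161, 158 and 150.3 CPM in females and at 64.3, 72.1 and 52.8 CPM in males (-1.32 ± 0.10). None of these 3 genes overlapped between the sexes. Klhl3 (-0.94 ± 0.11), which targets WNK kinases for degradation, Stk39 (-0.56 ± 0.08), the kinase that activates salt cotransporters, and Scnn1g (-0.63 ± 0.08), an epithelial sodium channel subunit, were lower as well. Slc12a1 (NKCC2), the salt cotransporter of the thick ascending limb, was at 2055, 1747 and 1107 CPM in females and at 1231, 1088 and 738 CPM in males. Its groups overlapped while each male was below the female of its own genotype (-0.67 ± 0.10), and it was not called without the genotype block (adjusted p = 0.0832).

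**Figure D3:**
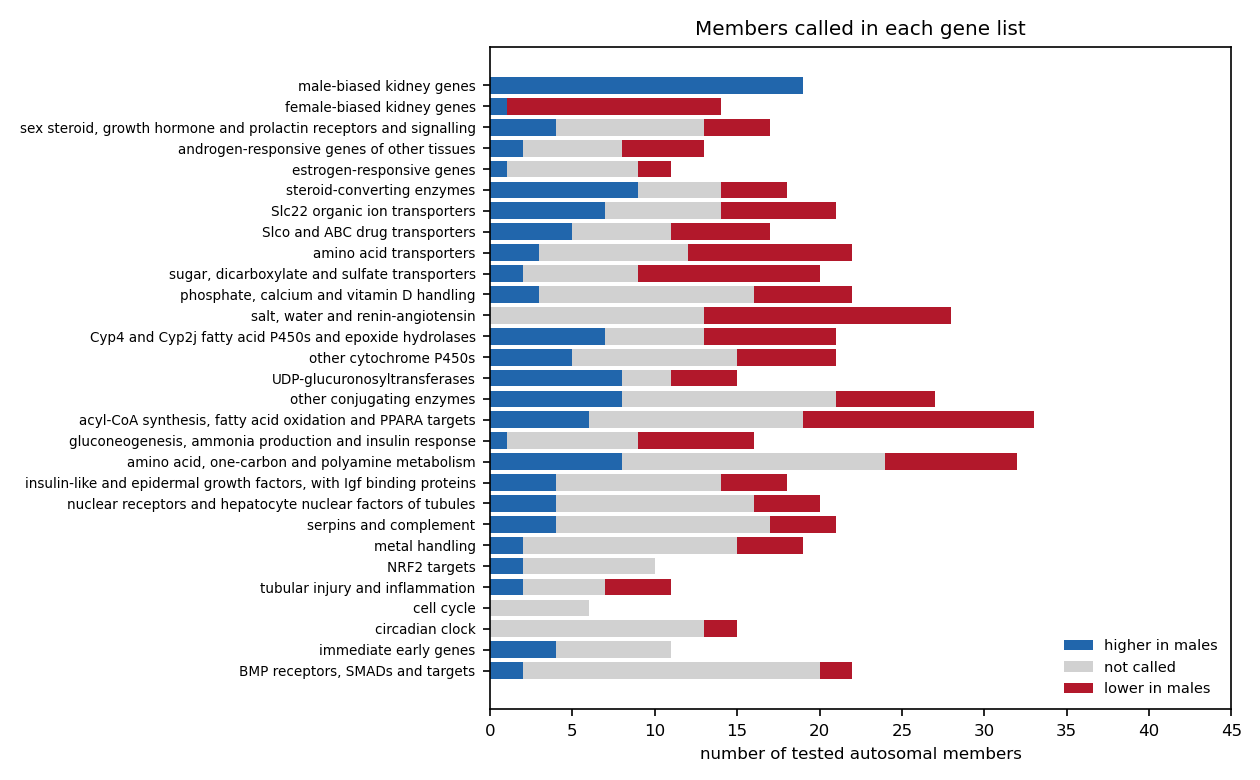
Number of tested autosomal members of each functional list that were called higher in males (blue), not called (grey) and called lower in males (red). Salt, water and renin-angiotensin genes are called in the lower direction in 15 of 28 cases with none higher, while the Slc22 family is divided 7 to 7.

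Fatty acid P450s were divided by family member. Of 21 Cyp4, Cyp2j and epoxide hydrolase genes 7 were higher in males and 8 lower. Cyp4a12a, the arachidonic acid omega-hydroxylase of male mouse kidney, was at 11.4, 12.9 and 9.53 CPM in females and at 399.8, 223 and 411 CPM in males (4.89 ± 0.25), in the direction opposite to that of Cyp4a14. Cyp4b1 was at 391, 349 and 449 CPM in females and at 3066, 2603 and 3862 CPM in males (2.99 ± 0.11). Ephx2, soluble epoxide hydrolase, which degrades the vasodilator epoxides of arachidonic acid, was higher in males (1.40 ± 0.11). Cyp4f14, a leukotriene hydroxylase, was lower (-2.97 ± 0.28). Without either Delx4 library 5 genes were called lower. Cyp4a12a and Cyp4a12b are near copies and share reads that were not counted. Of 21 other P450s 5 were higher and 6 lower. Cyp2d9 was higher (4.37 ± 0.16) and Cyp2d26 lower (-1.80 ± 0.11) within 1 family, and Cyp26b1, which degrades retinoic acid, was lower (-1.72 ± 0.18).

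Conjugation showed the same division. Of 15 tested glucuronosyltransferases 8 were higher in males and 4 lower, with a median of 0.66. Ugt8a, which makes galactosylceramide, was at 15.3, 10.8 and 8.07 CPM in females and at 158, 154 and 179.7 CPM in males (3.89 ± 0.20). Ugt2b34 (-3.83 ± 0.17) and Ugt1a1 (-3.75 ± 0.35), the bilirubin-conjugating form, were lower. Ugt1a forms share all but their first exon, so only reads in the first exon tell them apart. Of 27 other conjugating enzymes 8 were higher and 6 lower. The lower ones included the alpha-class glutathione transferase genes Gsta2, at 405, 301 and 411 CPM in females and 63.8, 64.6 and 48.8 CPM in males (-2.65 ± 0.16), and Gsta4 (-2.78 ± 0.18), which detoxifies lipid aldehydes. Higher were the acetyltransferase genes Nat8 (1.50 ± 0.10), which makes mercapturic acids, Nat8f2 (2.06 ± 0.09) and Nat2 (1.19 ± 0.12).

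In acyl-CoA synthesis, fatty acid oxidation and targets of PPARA, 6 of 33 genes were higher in males and 14 lower, with a median of -0.25. Acaa2, a mitochondrial thiolase, was at 304, 257 and 280.1 CPM in females and at 72.2, 83.3 and 78.3 CPM in males (-1.85 ± 0.11). Acot3, a peroxisomal acyl-CoA thioesterase, was at 136, 122 and 130.3 CPM in females and at 26.8, 24.8 and 33.1 CPM in males (-2.20 ± 0.10). Cd36, the fatty acid uptake receptor, was in the opposite direction, at 129, 126 and 120.5 CPM in females and 579, 496 and 638 CPM in males (2.18 ± 0.11). No group of these 3 genes overlapped.

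Gluconeogenesis, ammonia production and insulin response had 1 of 16 genes higher and 7 lower. Glul, glutamine synthetase, was at 917, 1062 and 1137 CPM in females and at 557, 377 and 600.4 CPM in males (-1.04 ± 0.15). Fbp2, a fructose-bisphosphatase (-1.38 ± 0.10), Igfbp1, which binds insulin-like growth factors and is repressed by insulin (-1.41 ± 0.19), Irs1, an insulin receptor substrate (-0.59 ± 0.10), and Pklr, a pyruvate kinase (-0.73 ± 0.12), were lower. Pck1, the rate-limiting gluconeogenic enzyme, was at 9469.8, 8690.5 and 9521 CPM in females and at 4275, 4876 and 7069.8 CPM in males (-0.80 ± 0.15). Its difference was -1.15, -0.83 and -0.43 in the 3 pairs, and it was not called without the Rosa female (adjusted p = 0.0642) or the Rosa male (0.0547). The 1 higher gene was Pcx, pyruvate carboxylase (0.43 ± 0.12), which lost its call without any 1 of the Rosa and Delx4 libraries.

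Of 32 genes of amino acid, one-carbon and polyamine metabolism 8 were higher and 8 lower. Beside Bhmt and Hdc, the lower ones included Aadat (-3.21 ± 0.18) and Kynu (-1.99 ± 0.09) of tryptophan breakdown. Aadat was at 1039, 1169 and 1519.6 CPM in females and at 166, 108 and 131 CPM in males. Arg2, the mitochondrial arginase that yields ornithine, was lower in males (-2.15 ± 0.13), while Odc1, which uses ornithine, was higher. The number called higher was 5 without any 1 of the Rosa and Delx4 libraries and 10 without either R899X library.

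Growth factor genes beyond Igf2 moved in both directions, 4 of 18 higher and 4 lower. Igf2r, which clears Igf2 from the cell surface, was higher in males (0.83 ± 0.11), as was Egfr (0.59 ± 0.09). Egf, made in the thick ascending limb and distal convoluted tubule, was at 2707, 2468 and 2477 CPM in females and at 1544, 1467 and 1215 CPM in males (-0.86 ± 0.11). Igfals, the acid-labile partner of circulating Igf1, was lower (-1.70 ± 0.11), and Igf1 itself was not called (-0.52 ± 0.23, adjusted p = 0.179). Without either Delx4 library 2 of the growth factor list were called higher. Of 20 nuclear receptors and hepatocyte nuclear factors 4 were higher and 4 lower. Nr1i2, the xenobiotic receptor PXR, was at 9.89, 8.85 and 10.1 CPM in females and at 1.83, 1.18 and 1.50 CPM in males (-2.69 ± 0.20, adjusted p = 0.000122). Nr1h4, the bile acid receptor FXR (0.81 ± 0.11), and Pparg (1.59 ± 0.27) were higher in males. Of that list 2 were called higher without either Rosa library and 6 without either R899X library.

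Of 21 serpin and complement genes 4 were higher and 4 lower. Serpinf2, alpha-2-antiplasmin, was at 82.0, 69.2 and 90.3 CPM in females and at 372, 313 and 395 CPM in males (2.16 ± 0.09). C4b, complement component 4, was higher (2.28 ± 0.18), as was Apoh (4.13 ± 0.44), beta-2-glycoprotein 1. Apoe (-0.94 ± 0.09) and Serpina1f (-1.57 ± 0.17) were lower. In metal handling 2 of 19 genes were higher and 4 lower. Mt1 (-0.88 ± 0.13) and Mt2 (-0.93 ± 0.09), whose metallothioneins hold zinc and copper, the zinc carrier gene Slc39a5 (-1.80 ± 0.09) and the iron exporter gene Slc40a1 (-0.63 ± 0.08) were lower in males, and the transferrin receptor gene Tfrc (0.54 ± 0.10) was higher. Mt2 stood at 41.1, 35.1 and 43.5 CPM in females and at 20.5, 18.2 and 24.3 CPM in males. Mt1 stood at 98.1, 111 and 117 CPM in females and at 59.9, 45.6 and 75.1 CPM in males. For both genes every male was below every female. On the reading by library number the supplemented R899X female was the lowest female for Mt2 and between the others for Mt1. On the reading by list position the supplemented Delx4 male was the highest male for both, and the supplemented Rosa female the lowest female for Mt1 and between the others for Mt2.

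Of 10 targets of NRF2, the transcription factor of the antioxidant response, Hmox1 (0.77 ± 0.13) and Gsr (0.43 ± 0.09) were higher and 8 were not called, a share near the 17.2% of all genes; Gsr lost its call without either Rosa or either Delx4 library, and 1 of the 10 was called lower without the R899X female or either Delx4 library. Of 11 tested genes of tubular injury and inflammation 2 were higher in males, 4 were lower and 5 were not called, with a median of -0.21; without the genotype block 1 was higher and 2 were lower. Havcr1 (KIM-1), the standard marker of proximal tubule injury, was at 7.46, 19.7 and 8.26 CPM in females and at 3.48, 6.15 and 5.72 CPM in males, with the R899X female highest (-1.12 ± 0.23, adjusted p = 0.0138; adjusted p = 0.0556 without the genotype block). Spp1, osteopontin, was at 968, 849 and 993 CPM in females and at 400.4, 461 and 272 CPM in males (-1.34 ± 0.18). Clu, clusterin, was at 149.6, 193 and 229.6 CPM in females and at 117, 125 and 128 CPM in males (-0.61 ± 0.11). Krt20, a keratin of injured tubules, was lower (-1.88 ± 0.46, adjusted p = 0.029) with overlapping groups, and lost its call without any 1 of the 6 libraries, without the genotype block and with DESeq2 (adjusted p = 0.078). Il34, a macrophage growth factor made by tubules, was higher in males (2.43 ± 0.17). The chemokine gene Cxcl1 was higher too (1.25 ± 0.26), with overlapping groups and no call without either Delx4 library. Of 6 tested cell cycle genes none was called by edgeR, DESeq2 or limma-voom, and none had an unadjusted p under 0.05. Of 15 clock genes Per1 (-1.16 ± 0.20) and Cry1 (-1.06 ± 0.22) were lower and 13 were not called. This share was below the 17.2% of all genes called in either direction and above the 8.53% called lower. Per1 was not called without the genotype block (adjusted p = 0.0856). Cry1 was not called without the Rosa female (adjusted p = 0.0669) or the Rosa male (0.0561). Without either Delx4 library 4 clock genes were called lower, and without either R899X library 1 was called higher.

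Immediate early genes, which respond within minutes to handling and injury, had 4 of 11 members higher in males, Ier2 (1.13 ± 0.11), Junb (0.97 ± 0.09), Fos (1.17 ± 0.16) and Egr1 (1.20 ± 0.26), with none lower (1 was called lower without either Delx4 library). Fos was at 11.5, 26.4 and 28.4 CPM in females and at 17.7, 75.6 and 68.4 CPM in males. Both Rosa libraries were low, so the sexes overlapped, while each male was above the female of its genotype. Without the genotype block 1 of the 4 was called, and Fos, Junb and Egr1 had adjusted p of 0.105, 0.104 and 0.207.

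Of 22 BMP receptor, SMAD and target genes 18 were not called, a share near that of all genes. Bmp6 (0.51 ± 0.08) and Id3 (0.33 ± 0.09) were higher in males, and Acvrl1 (-0.60 ± 0.12) and Smad9 (-0.80 ± 0.21) lower. Id3 lost its call without any 1 of the 6 libraries (adjusted p from 0.0841 to 0.117). Acvrl1 lost it without either Delx4 library and Smad9 without either R899X or either Delx4 library. Without either Rosa library 4 of the 22 were called lower, and without either Delx4 library none was.

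Markers of single cell types show which part of the nephron the tissue RNA came from. Levels in CPM are relative to the reads of all tested genes. In whole kidney, fewer cells of a type, less RNA per cell and a larger share of reads from other cells cannot be told apart. Of 15 proximal tubule markers, 3 were higher (Slc22a6, Ggt1 and Slc34a1), 1 was lower (Slc5a12) and 11 were not called, with a median of -0.13. The number lower was 4 with DESeq2 and without a filter on low counts, and 2 without the R899X female and with a copper term by library number. Ggt1, the brush-border glutathione hydrolase, was at 749.7, 826 and 919.7 CPM in females and at 1658, 1371 and 1781 CPM in males (0.94 ± 0.11). Their summed level was 29800 to 30700 CPM in females and 29000 to 35400 CPM in males.

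Markers of the other nephron segments were lower in males where called. All 8 intercalated cell markers, 7 of 8 podocyte, 6 of 7 distal convoluted tubule, 5 of 7 thick ascending limb, 5 of 9 endothelial and 3 of 8 principal cell markers were lower, beside 8.53% of all genes, and none was higher. The medians were -0.65, -0.89, -0.63, -0.56, -0.39 and -0.24 in that order, against -0.0080 over all genes. Summed podocyte markers were at 513 to 636 CPM in females and 289 to 362 CPM in males, and summed intercalated cell markers at 414 to 465 and 269 to 296. Summed distal convoluted tubule markers were at 1750 to 1980 CPM and 1090 to 1280 CPM, summed thick ascending limb markers at 7480 to 9080 and 4210 to 6150, and summed endothelial markers at 470.0 to 578 and 344 to 413. Summed principal cell markers overlapped, at 780.0 to 982 CPM in females and 594 to 961 CPM in males. Of the salt and water genes described above, Slc12a1 and Scnn1g are on these marker lists, while Ren1, Mme, Sgk1, Klhl3 and Stk39 are not. The part of cell numbers in any of these differences was not tested.

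By gene, the slit diaphragm component Nphs1 was at 30.4, 43.2 and 44.8 CPM in females and at 15.8, 24.0 and 16.3 CPM in males (-1.08 ± 0.13). Podxl, the podocyte surface sialomucin, was at 264, 299 and 259.6 CPM in females and at 159, 173 and 142 CPM in males (-0.80 ± 0.09). Atp6v0d2, a proton pump subunit of intercalated cells, was at 39.4, 40.2 and 42.4 CPM in females and at 26.0, 26.2 and 25.7 CPM in males, both within a narrow range (-0.65 ± 0.08). Slc26a4 (pendrin), of the bicarbonate-secreting intercalated cell, was lower too (-0.68 ± 0.14). Trpm6, the magnesium channel of the distal convoluted tubule, was at 26.0, 26.4 and 22.2 CPM in females and at 14.6, 14.2 and 13.4 CPM in males (-0.82 ± 0.10). In the endothelium Ehd3, of glomerular capillaries, was at 47.5, 44.3 and 43.5 CPM in females and at 27.2, 27.1 and 27.4 CPM in males (-0.73 ± 0.08). Tek was lower as well (-0.51 ± 0.09), and Eng was not called (-0.39 ± 0.11, adjusted p = 0.053).

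Some of these counts rested on single libraries. Without either Delx4 library 2 endothelial, 2 thick ascending limb and 1 principal cell marker were called lower, and 3 distal convoluted tubule markers were without the Delx4 female and 4 without the Delx4 male. Without either Rosa library 8 endothelial markers were called lower. Podocyte and intercalated cell counts stayed at 6 or more of 8. Without the genotype block 3 thick ascending limb markers were called.

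**Figure D4:**
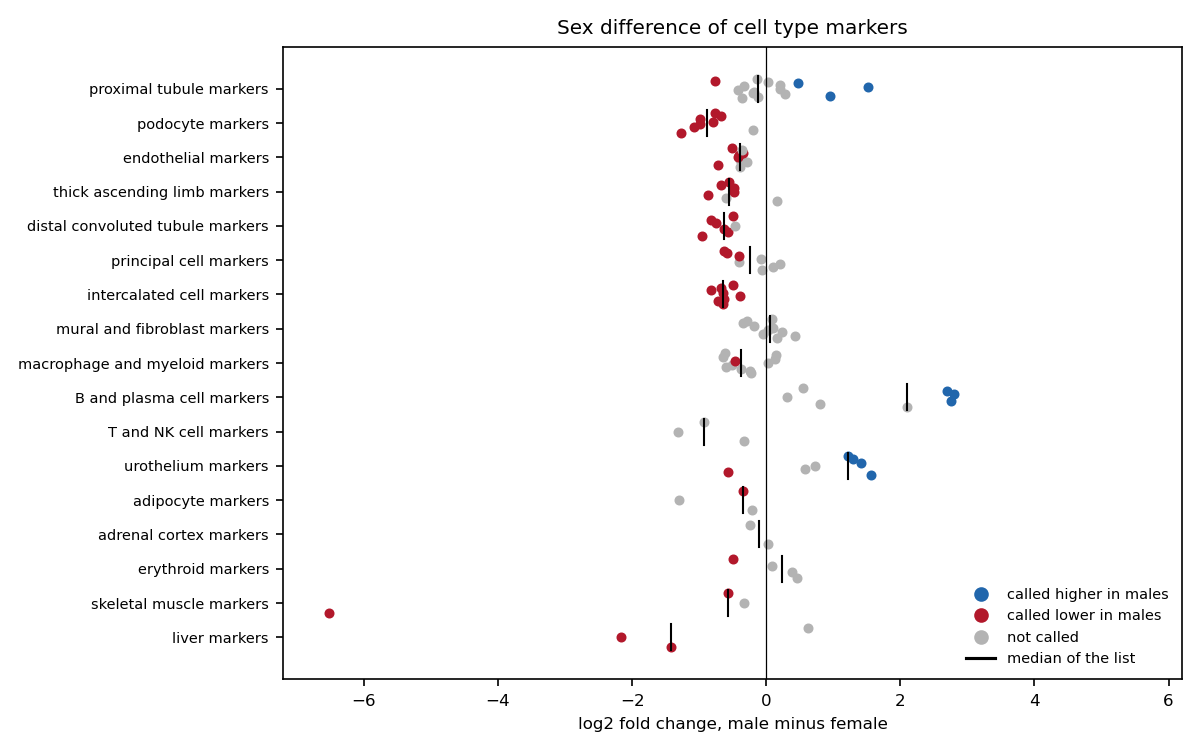
Log2 fold change (male minus female) of each tested marker gene, by cell type, with blue for called higher in males, red for called lower, grey for not called and a black bar for the median of the list. Podocyte, intercalated and distal convoluted tubule markers lie left of 0 while proximal tubule markers lie on both sides. The B and plasma cell median of 2.10 is the value of Cd79a, which had few reads and was not called.

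Of 10 mural and fibroblast markers and 3 T and NK cell markers, edgeR, DESeq2 and limma-voom called none; 2 and 1 had an unadjusted p under 0.05. With single libraries left out, at most 1 member of either list was called. Of 11 macrophage and myeloid markers 1 was lower, the receptor gene Csf1r (-0.47 ± 0.13, adjusted p = 0.0477), which was not called without the R899X male or either Delx4 library. Neither of 2 tested adrenal cortex markers was called by any of the 3 tools, and neither had an unadjusted p under 0.05. Of 3 adipocyte markers 1 was lower, Fabp4 (-0.35 ± 0.08), and its call was lost without any 1 library. Of 4 erythroid markers 1 was lower, Slc4a1 (-0.50 ± 0.14), which intercalated cells share and which was not called without the Rosa female or either Delx4 library. Of 3 skeletal muscle markers 2 were lower, Myh1 and Pvalb, the latter also a marker of the distal convoluted tubule and not called without either Delx4 library.

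B and plasma cell markers were 3 of 7 higher in males, the immunoglobulin genes Igkc (2.80 ± 0.30), Jchain (2.70 ± 0.37) and Igha (2.75 ± 0.48). Those not called included Cd79a (2.10 ± 0.75, adjusted p = 0.103), Cd79b (0.79 ± 0.37, adjusted p = 0.203) and Ighm (0.31 ± 0.23, adjusted p = 0.410). Igkc was at 10.6, 18.0 and 37.6 CPM in females and at 38.4, 236 and 248 CPM in males. The Rosa male was close to the Delx4 female, far below the other males, and Igha overlapped between the sexes. The summed list was at 34.4, 42.0 and 89.9 CPM in females and at 91.6, 598 and 543 CPM in males.

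Urothelium markers, from the lining of the renal pelvis, had 4 of 7 higher and 1 lower: Upk1b (1.42 ± 0.38), Upk2 (1.29 ± 0.34), Upk3a (1.22 ± 0.30) and Krt5 (1.56 ± 0.32) against Krt7 (-0.57 ± 0.13). Upk3a was at 1.94, 1.71 and 0.559 CPM in females and at 3.11, 5.58 and 1.34 CPM in males, with the R899X male the highest library and the sexes overlapping. None of the 4 was called without the genotype block, none was called without either R899X or either Delx4 library, and 3 were called without either Rosa library. Krt7 was not called without either Rosa or either Delx4 library. It was at 101, 90.4 and 92.7 CPM in females and at 66.7, 77.9 and 49.5 CPM in males. The summed list, most of it Krt7, overlapped between the sexes, at 96.8 to 111 CPM in females and 57.2 to 106 CPM in males.

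Of 3 tested liver markers Fgb (-2.16 ± 0.36) and Alb (-1.43 ± 0.37) were lower in males. Alb was at 9.50, 13.4 and 34.3 CPM in females and at 7.19, 6.12 and 5.34 CPM in males, with the Delx4 female well above the other females. The summed list was at 12.7, 17.6 and 44.3 CPM in females and at 9.48, 7.76 and 7.30 CPM in males, and the liver genes Apoa1 and Ahsg, too low to test, had 127 of 137 and 131 of 134 of their female reads in 1 library. Without the Delx4 female Alb was not called (adjusted p = 0.0726). Hdc and Tmprss6 were also highest in the Delx4 female, and both were called without it; Serpina6, a gene of liver, was lowest there.

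Genes called on these 3 genotype pairs together had the same direction in nearly all cases, with some difference in size between pairs. The call favours genes that go 1 way in all pairs, so this is no test. Across all 14615 tested autosomal genes, the male-minus-female differences of any 2 pairs correlated at 0.58 to 0.61 (Pearson's r across genes, which are not independent replicates; the pairs share no library). Among the 378 genes more than 2-fold higher in males the median difference was 1.82 in the Rosa, 1.69 in the R899X and 1.89 in the Delx4 pair. The R899X pair gave the smallest of the 3 differences in 56.1% of them, the Rosa pair in 22.8% and the Delx4 pair in 21.2%. Among the 347 genes more than 2-fold lower the medians were -1.64, -1.52 and -1.72, and the R899X pair gave the smallest size in 46.7%.

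Kap differed by 2.88, 1.74 and 1.74 in the Rosa, R899X and Delx4 pairs, Acsm3 by 7.93, 6.32 and 8.58, Cyp4a12a by 5.13, 4.11 and 5.43 and Prlr by -4.18, -3.13 and -4.71. In 3 of these 4 genes the R899X pair had the smallest difference, and for Kap it shared that place with the Delx4 pair. The 4 genes are examples, and other genes with large differences went otherwise. Slco1a1 differed by 7.69, 7.94 and 8.53 and Igf2 by -6.78, -7.24 and -8.22, smallest in the Rosa pair. Pzp differed by 8.43, 8.27 and 7.07, smallest in the Delx4 pair. A sex-by-genotype term would leave no residual degrees of freedom, so the differences between pairs were not tested. The R899X pair holds the male library led by Gm42418 and, on 1 reading of the sample numbers, a copper-supplemented female; their part was not tested.

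**Figure D5:**
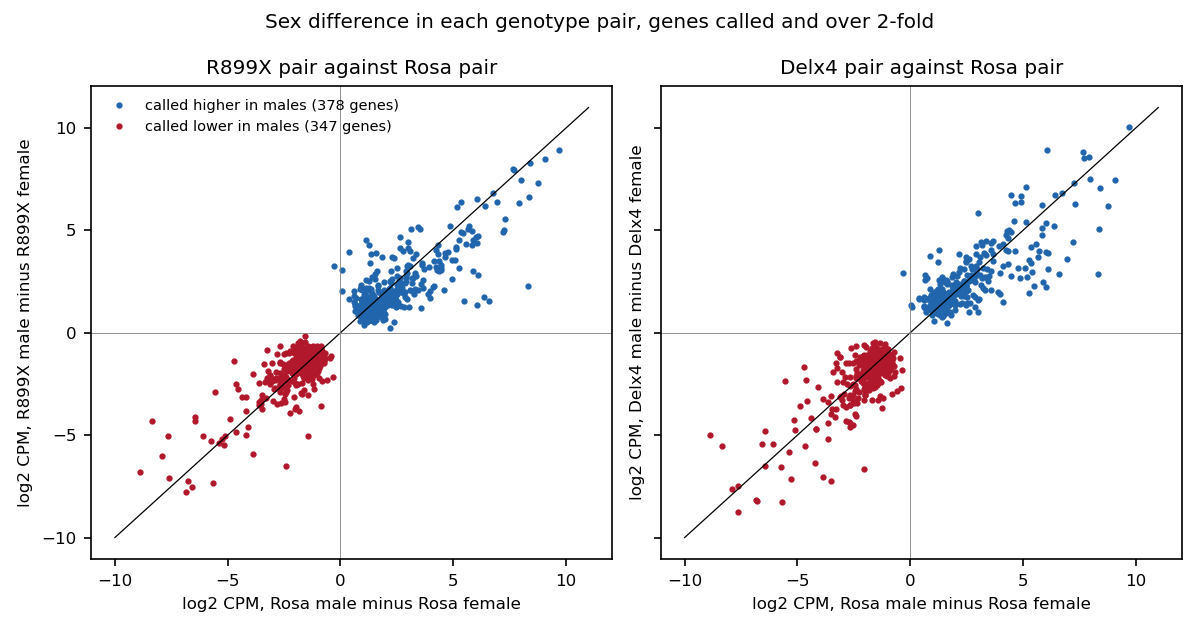
Male-minus-female difference in log2 CPM of the 725 genes called and over 2-fold, in the R899X pair (left) and the Delx4 pair (right) against the Rosa pair, with the line of equality. Blue marks the 378 genes called higher in males and red the 347 called lower. The genes were called on these same pairs. Nearly every gene has the same sign on both axes, and blue points of the R899X panel tend to lie below the line.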

How the data were processed

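PolyA RNA of pooled mouse kidneys was sequenced from stranded libraries, per the labels' protocols. The authors deposited raw read counts per gene for each library, with the strands together and apart, in the layout STAR writes; per the submitters' processing notes the tools were STAR 2.5.1b and HTSeq, and the build named is UMD 3.1, a cattle assembly, while the identifiers are mouse Ensembl ones. No source used here names the mouse build, so no gene coordinates are printed apart from those of the RefSeq promoters. Of 47729 identifiers 47310 were named by GENCODE mouse M21. Reads that map to several places or fit several genes were left out of the deposited counts, which makes members of near-identical families uncertain.

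The counts of the strand with the larger total were used. Genes passed edgeR's filterByExpr by sex (minimum count 10, minimum total 15), which left 15164 genes, 14615 of them autosomal. TMM factors were 0.933 to 1.05. The model was fitted in R 4.3.3 with edgeR 4.0.16 (quasi-likelihood, terms genotype and sex, 2 residual degrees of freedom, biological coefficient of variation 12.9%), with Benjamini-Hochberg adjustment over all 15164 genes and a threshold of 0.05. The SE is the size of the log2 fold change over the square root of F. Genotype pairs the libraries: the labels give 1 male and 1 female pool of each. On simulated data the fit recovered 25 of 50 genes changed 1.5-fold and 50 of 50 changed 2-fold. That simulation used 1 dispersion for all genes and genotype effects equal in both sexes. A sex difference that varies with genotype was therefore not part of it. Ratios for genes with 1 to 3 reads in a sex have exact (Clopper-Pearson) 95% intervals.

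The text names the 15 largest differences each way among called genes with 1 sign in all pairs, a mean of at least 2 CPM and an established name, up to 6 members of each of 46 gene lists by smallest p, and 10 fixed genes; others are said to be outside this rule, and some genes that the rule took are not reported here. The members and lists were chosen with earlier results of these data known. Alternatives were DESeq2 1.42.0, limma-voom (limma 3.58.1), DESeq2 size factors, no filter, a minimum count of 50, both strands together, no genotype block, a copper term by each reading, each library left out and, added after seeing the data, Gm42418 left out before scaling. The 4 libraries with 16OHE and X and Y genes other than the sex check were not used here.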

Additional observations from a re-analysis of the deposited data

How the results depend on the processing

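The number of autosomal genes called, 2516 (1269 higher and 1247 lower in males), was 2067 to 3428 under the 10 settings that keep all 6 libraries. It was 2517 with DESeq2 size factors, 2335 with DESeq2 (284 genes without an adjusted p), 2618 with limma-voom, 3428 without a filter on low counts, 2472 with a minimum count of 50, 2607 with both strands together, 2676 and 2067 with a copper term by library number and by list position, and 2517 without Gm42418. Genotype as a block rests on the labels, which give 1 male and 1 female pool per genotype; without the block 2579 genes were called, and 2265 of the 2516 kept their call and direction. Leaving out each library in turn gave 1411 to 2758 called genes, 715 to 1424 higher and 686 to 1334 lower. The share of higher calls stayed between 48.6 and 53.1%. No gene was called in the opposite direction, except 1 with both strands together. Of the called genes that the naming rule took, 20 lost their call without the block and 30 to 32 without a Delx4 library. With 2 residual degrees of freedom, a gene that was not called may still differ. Depth limits the genes at 0 to 3 reads in 1 sex to their intervals.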

Other observations

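In the order of GENCODE mouse M21, 158 of the 626 protein-coding autosomal genes called and over 2-fold (25.2%) had a direct tested neighbour that was also called and over 2-fold, while 1046 of the 12468 other tested protein-coding autosomal genes (8.39%) had such a neighbour. Of the 88 neighbouring pairs 66 had the same direction and 22 opposite directions. There were 5 runs of at least 4 genes, all chosen after their values were seen. On chromosome 1 Ugt1a6a, Ugt1a2, Dnajb3 and Ugt1a1 were all lower in males, on chromosome 9 the glutathione transferase genes Gsta4, Gsta1 and Gsta2 with Gm10639, and on chromosome 16 the carbonyl reductase genes Cbr1 and Cbr3 with Setd4 and Gm5678. The other two runs held both directions. On chromosome 19 Slc22a28 and Slc22a30 were higher and Slc22a27 and Slc22a29 lower, and on chromosome 4 Cyp4a12a and Cyp4a12b were higher and Cyp4a14 and Cyp4a10 lower. Members of such clusters resemble each other in sequence, and reads shared between them were not counted.

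By kind of gene, immunoglobulin variable segments had 12 of 21 tested members higher in males and none lower, next to 1194 higher and 1187 lower of 13094 protein-coding genes; none of the 21 was tested apart from the fit across all genes. Of 254 long intergenic RNAs 16 were higher and 20 lower, and of 334 processed pseudogenes 5 were higher and 7 lower. In absolute level, the gain and loss in the named groups was uneven. Acsm2, an acyl-CoA synthetase gene, was at 1036, 1169 and 1094 CPM in females and 5449, 4039 and 6199.8 CPM in males, and the aminoacylase gene Acy3 at 732, 877 and 1029 and 3409, 2692 and 3862. Napsa, which encodes the aspartic protease napsin A of tubules and lung, was at 3873, 3604 and 4339.8 CPM in females and 2576, 1617 and 2354 CPM in males. These 3 genes were chosen after their values were seen, among those with large differences in CPM, and their log2 fold changes were 2.23 ± 0.16, 1.92 ± 0.14 and -0.88 ± 0.13.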
